A study of Homo sapiens with 20 samples.

Results

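Distal AP-1 regions were analysed in the chromatin recovered with antibodies to BMAL1 and HIF2α from A498 cells. The 4 lists of called peaks held 12171 peaks, which were merged wherever they overlapped by at least 1 bp into 8280 regions. Each region took the summit (the position of highest signal) of its peak with the smallest p-value. A region was a member when that summit lay more than 1 kb from every annotated transcript start and when the 200 bp around it held the AP-1 motif but neither the E-box nor the core of the hypoxia response element (HRE). Of 4548 distal regions, 1042 held an AP-1 motif (22.9%). Of these, 48 also held an E-box and a further 369 an HRE core without an E-box, which left 625 members, 13.7% of the distal regions. The members comprised 820 peaks, and 477 members were formed by 1 peak each.

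A498 is an established ccRCC (clear cell renal cell carcinoma) line that lacks functional VHL, so that HIF2α is not degraded. CUT&RUN, in which a nuclease tethered to an antibody releases the DNA next to the bound protein, was applied to puromycin-selected cells labelled wild type that carried a lentiviral control shRNA (shCNT) or a lentiviral shRNA against BMAL1 (shBMAL1). The 20 libraries fell into 6 groups, 4 libraries for each pairing of an shRNA with the BMAL1 or HIF2α antibody and 2 with a non-specific IgG for each shRNA. The study asked whether BMAL1 alters where HIF2α binds. The BMAL1 lists held 2350 peaks under shCNT and 4261 under shBMAL1, and the HIF2α lists 2361 and 3199. The shBMAL1 BMAL1 list was longer than the shCNT BMAL1 list, against the direction that the knockdown label implies, and every statement on shRNAs below refers to lists so labelled. There was 1 list per group and none for IgG, so no difference between lists could be set against replicate spread, no p-value was computed, and whether the members are also recovered with IgG was not tested. Shares are given with Wilson 95% intervals and differences of shares with Newcombe 95% intervals, which cover counting error over regions only.

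AP-1 is a family of dimers of JUN, FOS and related ATF or MAF proteins. It binds the 7-bp TPA response element TGACTCA, which reads on the other strand as TGAGTCA, and is a common occupant of enhancers, the distal elements that raise transcription of genes, in cells with active growth factor and stress signalling. BMAL1, paired with CLOCK, binds the E-box CACGTG, and HIF2α, paired with ARNT, binds HREs with the core ACGTG or GCGTG. Every CACGTG E-box also contains ACGTG. The members therefore carry neither sequence to which the precipitated proteins are known to bind directly within 100 bp of the summit.

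The members with the strongest peaks illustrate these windows. Each line gives the gene named for the region, the GRCh37 (hg19) coordinates and 51 bases of the plus strand centred on the AP-1 motif nearest to the summit, with that motif in capitals. The 200-bp window can extend past the called peak, and the SGSM2 motif lies beyond the end of its region. The first 4 were among the 3 strongest members of a BMAL1 list.
TRPM8 chr2:234883387-234883437: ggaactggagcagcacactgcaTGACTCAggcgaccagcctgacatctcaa
KLF6 chr10:3894661-3894711: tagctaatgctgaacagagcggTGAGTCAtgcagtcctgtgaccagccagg
SGSM2 chr17:2263022-2263072: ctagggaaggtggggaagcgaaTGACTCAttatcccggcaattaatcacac
GRIN2D chr19:48903082-48903132: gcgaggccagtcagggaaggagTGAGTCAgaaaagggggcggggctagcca
The next 4 were among the 3 strongest members of a HIF2α list.
IL1RAP chr3:190284311-190284361: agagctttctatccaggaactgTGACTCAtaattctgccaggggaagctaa
INHBA chr7:41612757-41612807: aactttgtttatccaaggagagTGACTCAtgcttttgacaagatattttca
BARX2 chr11:129310139-129310189: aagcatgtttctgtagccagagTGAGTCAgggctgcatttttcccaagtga
EVX1 chr7:27317393-27317443: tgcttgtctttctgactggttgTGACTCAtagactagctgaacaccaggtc
The last 5 had the highest median percentile among the members called in all 4 lists, and ESYT2 was also among the 3 strongest of the shBMAL1 BMAL1 list.
ESYT2 chr7:158611432-158611482: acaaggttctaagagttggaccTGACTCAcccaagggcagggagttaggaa
DOT1L chr19:2169015-2169065: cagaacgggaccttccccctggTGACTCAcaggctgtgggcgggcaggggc
DNAJB12 chr10:74080649-74080699: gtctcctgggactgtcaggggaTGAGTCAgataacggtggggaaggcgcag
MALL chr2:110859207-110859257: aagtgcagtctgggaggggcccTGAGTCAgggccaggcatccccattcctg
NEK6 chr9:127068795-127068845: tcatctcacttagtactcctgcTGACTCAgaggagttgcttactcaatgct
The 200 bp that the rule searched are shown for 1 member called mainly with the BMAL1 antibody, 1 called only with the HIF2α antibody and 1 called in all 4 lists, again with each AP-1 motif in capitals.
TRPM8 chr2:234883343-234883542: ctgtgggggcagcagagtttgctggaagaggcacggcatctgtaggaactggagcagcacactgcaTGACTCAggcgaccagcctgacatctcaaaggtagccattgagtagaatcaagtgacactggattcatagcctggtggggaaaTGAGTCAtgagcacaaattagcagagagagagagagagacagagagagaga
IL1RAP chr3:190284250-190284449: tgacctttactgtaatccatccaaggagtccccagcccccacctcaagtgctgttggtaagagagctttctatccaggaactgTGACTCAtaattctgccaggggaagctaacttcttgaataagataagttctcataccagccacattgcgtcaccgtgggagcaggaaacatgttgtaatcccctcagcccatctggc
ESYT2 chr7:158611293-158611492: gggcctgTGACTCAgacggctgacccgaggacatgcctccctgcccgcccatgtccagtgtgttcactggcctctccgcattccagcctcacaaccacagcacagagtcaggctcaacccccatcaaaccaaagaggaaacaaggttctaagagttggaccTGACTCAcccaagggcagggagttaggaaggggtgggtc
The TRPM8 and ESYT2 windows hold 2 motifs each and the IL1RAP window holds 1. Over all members, 570 windows held 1 AP-1 motif, 54 held 2 and 1 held 3, which gives 681 motifs.

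The members were found mainly in the shBMAL1 BMAL1 list. That list had a peak at 427 of 625 members (68.3%, interval 64.6 to 71.8%), against 51.3% of all merged regions. The shCNT BMAL1 list had a peak at 162 (25.9%, 22.6 to 29.5%), against 28.3% of all regions. The HIF2α lists held fewer: 77 members in shCNT HIF2α (12.3%, 9.97 to 15.1%) against 28.3% of all regions, and 152 in shBMAL1 HIF2α (24.3%, 21.1 to 27.8%) against 38.4%. A BMAL1 list of either shRNA held 511 members (81.8% against 66.1% of all regions) and a HIF2α list of either shRNA held 194 (31.0% against 50.9%). The BMAL1 shares were thus above those of all regions for shBMAL1 only, and both HIF2α shares were below. With the 4 lists shortened to equal length, the share in shCNT BMAL1 was 38.9% and that in shBMAL1 BMAL1 52.6%. The shares of all regions above belong to the full lists. In the shortened lists, the differences from distal regions with none of the 3 motifs were 2.27 points (-2.96 to 7.63) and 10.6 points (5.11 to 15.9). When motifs were sought within 50 bp of the summit, the share in shCNT HIF2α was 21.2%.

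Most members were called once. There were 477 members with a peak in 1 list only (76.3%, interval 72.8 to 79.5%), against 66.6% of all regions. Another 112 were in 2 lists (17.9% against 23.3% of all regions), 27 in 3 (4.32% against 7.20%) and 9 in all 4 (1.44% against 2.9%). The most frequent combination was the shBMAL1 BMAL1 list alone, with 308 members (49.3%), against 30.8% of all regions and 40.6% of distal regions with none of the 3 motifs. This list is also the longest. Next came shBMAL1 HIF2α alone with 72 (11.5% against 15.98% of all regions) and shCNT BMAL1 alone with 67 (10.7% against 11.04%). Of motif-free distal regions, 19.8% were in shBMAL1 HIF2α alone and 12.01% in shCNT BMAL1 alone. Both BMAL1 lists and no other held 56 members (8.96% against 7.27% of all regions). Both shBMAL1 lists and no other held 34 (5.44% against 3.85%), and shCNT HIF2α alone held 30 (4.80% against 8.83%). BMAL1 lists alone accounted for 431 members (69.0% against 49.1% of all regions) and HIF2α lists alone for 114 (18.2% against 33.9%). Both antibodies called 80 members (12.8% against 17.1%).

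**Figure D1:**
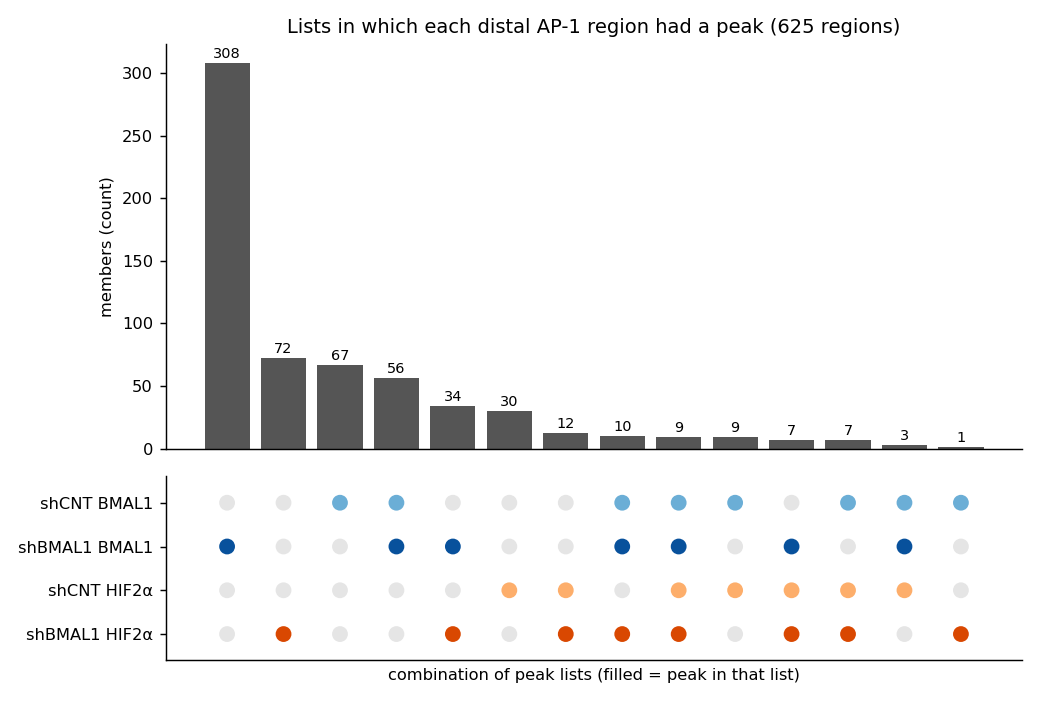
Number of distal AP-1 regions (bars, y axis) for each combination of the 4 peak lists, with filled circles below each bar marking the lists in which those regions had a peak. The shBMAL1 BMAL1 list alone held 308 of the 625 regions, and 9 were in all 4 lists.

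Sharing between shRNAs is given beside that of all regions and of motif-free distal regions. Of the 162 members in shCNT BMAL1, 78 were also in shBMAL1 BMAL1 (48.1%, interval 40.6 to 55.8%, against 47.7% of all regions and 41.0% of motif-free distal ones), and these made up 18.3% of the 427 members of the latter, against 26.3% of all its regions and 17.1% of motif-free ones. Of the 77 in shCNT HIF2α, 35 were also in shBMAL1 HIF2α (45.5%, 34.8 to 56.5%, against 55.8% and 40.3%), 23.0% of the 152 in that list, against 41.1% and 19.4%. A peak under both shRNAs, with either antibody, was found at 105 members (16.8% against 28.2% of all regions), under shBMAL1 alone at 414 (66.2% against 50.6%) and under shCNT alone at 106 (17.0% against 21.2%). Between antibodies under the same shRNA, 28 members were shared in shCNT cells, 17.3% of the BMAL1 and 36.4% of the HIF2α members, against 25.6% and 25.6% of all regions of those lists. In shBMAL1 cells 60 were shared, 14.1% and 39.5%, against 21.4% and 28.6%. At motif-free distal regions the antibodies shared 13.1% of the BMAL1 and 20% of the HIF2α regions in shCNT cells. In shBMAL1 cells these shares were 13.9% and 24.3%.

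The distal regions were then compared by the motifs they held, since all regions include those near transcript starts. The closest comparison was with 2106 distal regions with none of the 3 motifs. A BMAL1 list held 81.8% of members and 70.1% of the motif-free regions, a difference of 11.7 percentage points (interval 7.93 to 15.1). A HIF2α list held 31.0% and 41.3%, a difference of -10.2 points (-14.3 to -5.95). The differences are given for each list, and those of the 2 shRNAs were not tested against each other. For shBMAL1 BMAL1 the members exceeded the motif-free regions by 12.1 points (7.80 to 16.2), whereas for shCNT BMAL1 the difference was 2.42 points (-1.35 to 6.40). For shBMAL1 HIF2α it was -7.73 points (-11.5 to -3.71) and for shCNT HIF2α -3.11 points (-5.96 to 0.0631). With lists of equal length or a pileup of at least 5 the shBMAL1 HIF2α difference had an interval that includes 0, at -3.43 and -3.87 points, and the shCNT HIF2α difference, at -5.62 and -7.62 points, had one that excludes 0.

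In how often they were called, members and motif-free distal regions had differences whose intervals include 0. The share in 1 list only differed by -2.88 points (interval -6.75 to 0.752), the share with both antibodies by 1.45 points (-1.33 to 4.58), the share with both shRNAs by 0.466 points (-2.72 to 3.95) and the share under shBMAL1 alone by 2.09 points (-2.21 to 6.24). For shBMAL1 alone this depended on the peaks admitted, since with a pileup of at least 5 the difference was 6.74 points (1.09 to 12.3). When both sets were divided into quartiles of peak strength and the differences averaged with Mantel-Haenszel weights, the difference for a BMAL1 list was 9.66 points (6.12 to 13.2) and for a HIF2α list -10.0 points (-14.2 to -5.81). In strength quartile 3, counted from the weakest, they were 5.31 points (-2.62 to 12.3) and -3.51 points (-11.9 to 5.28). In the other strength quartiles the intervals excluded 0. With quartiles of GC content the averages were 11.4 points (7.81 to 15.0) and -10.1 points (-14.3 to -5.92). Within the GC quartiles, from the lowest to the highest GC content, the HIF2α difference was -21.0 (-28.7 to -12.2), -9.72 (-17.5 to -1.21), -8.41 (-16.2 to -0.00922) and -1.65 points (-10.0 to 7.33). The BMAL1 difference was 20.5 points (12.2 to 27.6) in the lowest quartile and 8.58 (1.21 to 14.6) in the highest. In the quartile of highest GC content the HIF2α difference was not detectable, and the quartiles were not tested against each other.

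Against the 1608 distal regions with an HRE core and no E-box, the members were further apart. A HIF2α list held 70.8% of these HRE regions, 39.8 points more than the 31.0% of members (interval of the members' difference -43.9 to -35.4), and both shRNAs had a peak at 37.3% of them against 16.8% of members (difference -20.5 points, -24.1 to -16.5). Both antibodies called 20.9% of HRE regions, and the members' difference was -8.10 points (-11.3 to -4.66). Against the 209 distal E-box regions, the members' difference depended on the shRNA label. It was -16.7 points (-24.2 to -9.24) for shCNT BMAL1 and 30.5 points (22.8 to 37.7) for shBMAL1 BMAL1.

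**Figure D2:**
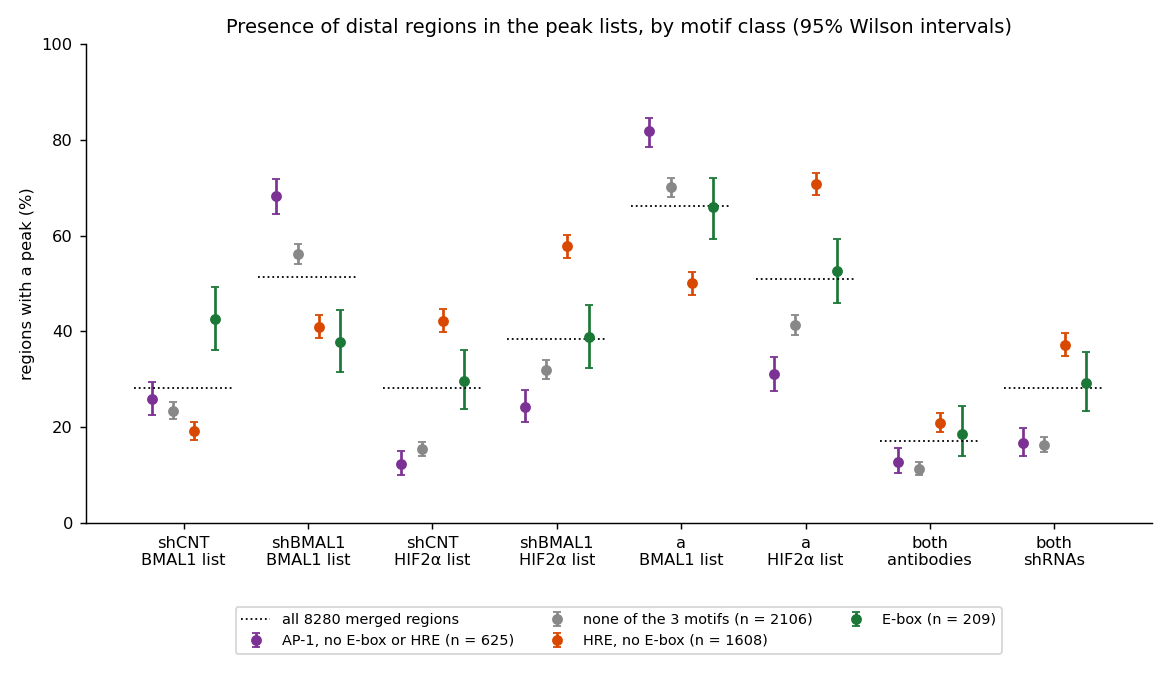
Share of distal regions with a peak (y axis, percent, points with 95% Wilson intervals) in each list or combination of lists (x axis), for regions with an AP-1 motif and no E-box or HRE, with none of the 3 motifs, with an HRE core and with an E-box, beside the share of all merged regions (dotted lines). The AP-1 regions have the highest share in a BMAL1 list (81.8%) and the lowest in a HIF2α list (31.0%). In the shCNT BMAL1 list the E-box regions have a higher share than the AP-1 regions, 42.6% against 25.9%. In the shBMAL1 BMAL1 list they have a lower one, 37.8% against 68.3%.

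The rule requires a motif near the summit, so the density of the AP-1 motif was also taken around every distal summit of each list, whether or not the region was a member. Within 100 bp the BMAL1 lists had 1.34 motifs per kb under shCNT and 1.48 under shBMAL1, and the HIF2α lists 1.16 and 1.14. At 500 to 1000 bp the density was between 0.198 and 0.227 per kb in the 4 lists. The ratio of the near to the far density was 6.65, 6.50, 5.71 and 5.77 in the same order. The HRE core had ratios of 1.62 and 1.23 in the shCNT and shBMAL1 BMAL1 lists and 2.75 and 2.49 in the HIF2α lists. By this ratio AP-1 was the most concentrated of the 3 motifs around distal summits of every list, the E-box having ratios of 3.54, 1.22, 1.88 and 1.80. By density the HRE core was the more frequent, with 2.97, 2.03, 4.80 and 3.96 per kb within 100 bp. Its far densities were 1.84, 1.65, 1.74 and 1.59 per kb in the same order.

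**Figure D3:**
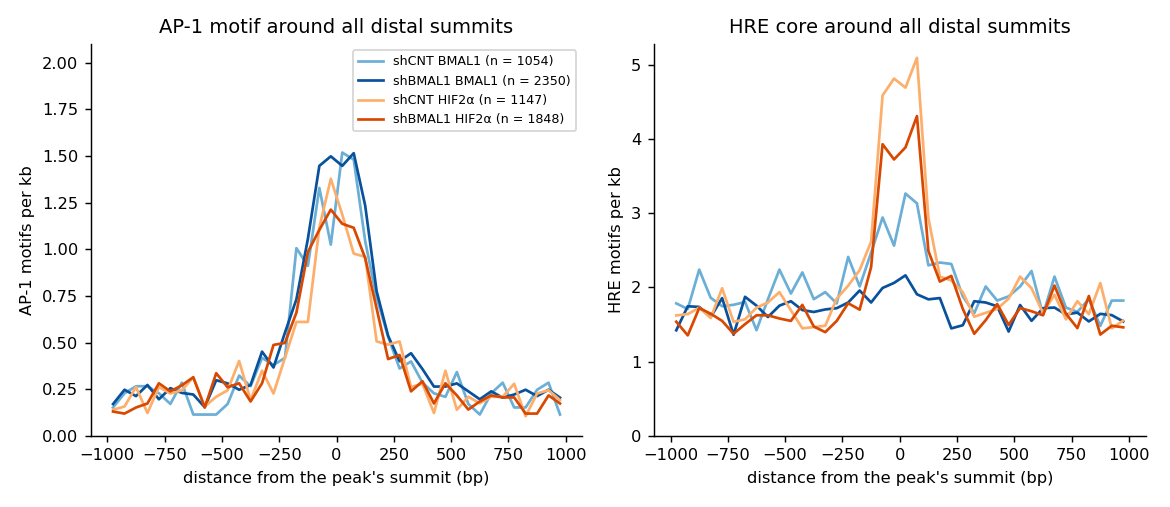
Density of the AP-1 motif (left) and of the HRE core (right) in motifs per kb (y axes) by distance from the summit in bp (x axes) around all distal summits of each list, in 50-bp bins. AP-1 density is highest within 100 bp in all 4 lists, at 1.14 to 1.48 per kb.

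Over all members, the motif was within 25 and 50 bp of the summit at about the share of positions found there. The nearest motif of a member lay a median of 48 bp from the summit, and 178 of 625 members (28.5%, interval 25.1 to 32.1%) had it within 25 bp, where 26.3% of the positions it can take are found. Within 50 bp these values were 53.0% (49.0 to 56.8%) and 52.1%. In the quartile of the strongest members the share within 25 bp was 30.8% (24.1 to 38.4%) and in the weakest 27.2% (20.9 to 34.6%), with overlapping intervals. Members in 2 or more lists had the motif within 50 bp at 43.2% (35.5 to 51.3%), below the 52.1% of positions, and members in 1 list at 56.0% (51.5 to 60.4%).

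The 148 members in more than 1 list have summits that the rule did not use. Taking 1 peak, the strongest, for each further list gave 193 such summits, of which 117 had an AP-1 motif within 100 bp (60.6%, interval 53.6 to 67.2%), against 71 of 573 at motif-free distal regions (12.4%, 9.94 to 15.3%). Many of these windows overlap those used by the rule. Where the unused summit lay up to 100 bp from the region's own summit, 83 of 102 had the motif, and over 100 and under 200 bp away 27 of 52 had it. At 200 bp or more, where the windows no longer overlap, 7 of 39 had it (17.9%, 8.98 to 32.7%), against 26 of 135 at motif-free regions (19.3%, 13.5 to 26.7%). The excess was therefore not detectable where the windows were separate. An HRE core was within 100 bp of 38 of the 193 unused summits (19.7%), and of 11 of the 28 that came from shCNT HIF2α (39.3%, 23.6 to 57.6%). In shCNT BMAL1, shBMAL1 BMAL1 and shBMAL1 HIF2α this share was lower, at 20.6%, 4.88% and 19.7%. At motif-free regions the core was near 126 of 573 unused summits (21.99%). From shCNT HIF2α it was near 33 of 107 (30.8%, 22.9 to 40.1%). Both intervals overlap those of the members.

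Regions just inside and outside the limits of the rule were described without a comparison test. Members with the motif 51 to 100 bp from the summit numbered 294, of which 80.6% were in a BMAL1 list and 34.4% in a HIF2α list. The 221 distal regions with the motif beyond the window, up to 150 bp from the summit, had 76.0% and 39.8%. Members with the summit 1 to 2 kb from a start numbered 61 (83.6% and 23.0%), and 37 regions of the same motif content lay at 0.5 to 1 kb (81.1% and 35.1%).

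The peaks at members were of low depth. The pileup counts the fragments that cover the summit, and it was recovered from the deposited fold and p-value. In the BMAL1 lists the members had a median pileup of 6 (range 4 to 15) under shCNT and 5 (3 to 12) under shBMAL1, and in the HIF2α lists 6 (4 to 37) and 5 (3 to 24). Strength was therefore read as the percentile of a peak's −log10 p within its own list. Member medians were 49.8 and 48.5 in the shCNT and shBMAL1 BMAL1 lists, near the middle of those lists, and 36.4 and 38.0 in the HIF2α lists, below the middle. Motif-free distal regions had medians of 43.1 and 37.7 in the BMAL1 lists and 35.3 and 31.3 in the HIF2α lists. At the 78 members with both BMAL1 peaks, the median percentile was 50.1 in the shCNT and 69.6 in the shBMAL1 list, and at motif-free regions 50.7 and 66.9. At the 35 with both HIF2α peaks the medians were 57.5 and 65.9, and at motif-free regions 57.5 and 69.9. These are ranks in lists of different length, so no change of strength between shRNAs was read from them.

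Depth moved with the shRNA label. The lowest background, in fragments per base, was 0.168 under shCNT and 0.0839 under shBMAL1 with the BMAL1 antibody, and 0.209 and 0.109 with the HIF2α antibody. No peak with fewer than 4 fragments was called under shCNT and none with fewer than 3 under shBMAL1. Of the 427 members in shBMAL1 BMAL1, 349 had no peak in shCNT BMAL1. The 78 that did were 18.3% of the list's members, against 26.3% of all its regions. Of the 349, 167 had a pileup of 4 or less and 182 a pileup of 5 or more, with a median of 5. The 78 with a peak in shCNT BMAL1 had a median pileup of 7. The 84 members in shCNT BMAL1 without a peak in shBMAL1 BMAL1 had a median pileup of 6, as did the 78 with one. The part of sequencing depth in the longer shBMAL1 lists was not tested.

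**Figure D4:**
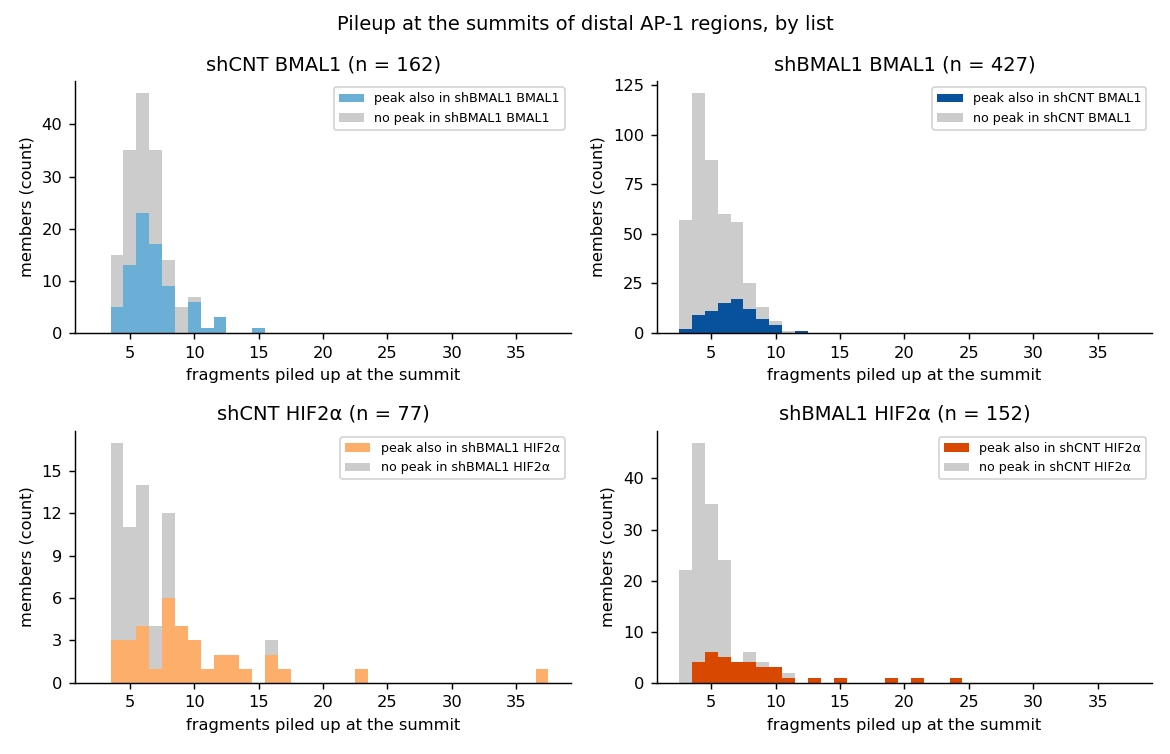
Number of distal AP-1 regions (y axes) by the pileup in fragments at the summit (x axes) in each of the 4 lists, coloured where the same antibody also had a peak under the other shRNA and grey where it did not. Most regions lie at pileups of 3 to 10, and values above 20 occur only in the HIF2α lists.

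Among the strongest BMAL1 members, an intron of TRPM8, which encodes a cold-sensing cation channel, ranked first in both BMAL1 lists (chr2:234883188-234883730, summit 5323 bp from the gene start). The pileup at TRPM8 was 15 in shCNT BMAL1, 12 in shBMAL1 BMAL1 and 6 in shBMAL1 HIF2α, at percentiles of 98.4, 96.3 and 65.9, with no peak in shCNT HIF2α. TRPM8 was thus near the top of both BMAL1 lists. The second member of shCNT BMAL1 lay between genes, 67261 bp from the start of KLF6, a zinc finger transcription factor (chr10:3894668-3894871). KLF6 had a pileup of 10 in shCNT BMAL1, at the 92.8th percentile, and no peak in the other lists. The third lay in an intron of SGSM2, a modulator of small GTPases (chr17:2262638-2263023), with pileups of 10 in shCNT BMAL1, 8 in shBMAL1 BMAL1 and 3 in shBMAL1 HIF2α and percentiles of 91.3, 88.1 and 9.13. The second member of shBMAL1 BMAL1 lay in an intron of GRIN2D, an NMDA receptor subunit (chr19:48902994-48903575), with a pileup of 10 at the 94.4th percentile and no peak elsewhere. KLF6 and GRIN2D were thus strong in 1 list and uncalled in the others.

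The strongest HIF2α members were without BMAL1 peaks. An intron of IL1RAP, the accessory chain of the interleukin-1 receptor (chr3:190284062-190284707), had pileups of 37 in shCNT HIF2α and 21 in shBMAL1 HIF2α, at percentiles of 98.9 and 93.0. A region between genes, 119384 bp from the start of INHBA, which encodes a subunit of activin (chr7:41612487-41613042), had pileups of 23 and 24, at percentiles of 94.0 and 86.3. The local background of INHBA was higher in shBMAL1 HIF2α, so that its fold over background was 17.7 in shCNT and 7.79 in shBMAL1. An intron of BARX2, a homeobox transcription factor (chr11:129309860-129310406), had pileups of 17 and 19, at percentiles of 90.9 and 97.7. A region 30412 bp from the start of EVX1, another homeobox gene (chr7:27317242-27317523), had pileups of 16 and 15, at percentiles of 83.3 and 93.8. All 4 were called with HIF2α under both shRNAs and with BMAL1 under neither.

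Of the 9 members in all 4 lists, 5 were named by their median percentile. An intron of DOT1L, a histone H3 methyltransferase (chr19:2168881-2169378), had BMAL1 pileups of 7 under shCNT and 7 under shBMAL1 and HIF2α pileups of 16 and 10, an order kept for the next values. An intron of ESYT2, which tethers the endoplasmic reticulum to the plasma membrane (chr7:158611054-158611847), had 10, 10, 12 and 11. A region between genes near DNAJB12, a chaperone partner of the endoplasmic reticulum (chr10:74079317-74080841), had 6, 6, 10 and 8. At these regions the HIF2α pileups exceeded the BMAL1 pileups, but the lists differ in depth. Percentiles within the lists were also higher with HIF2α at DOT1L and DNAJB12. At ESYT2 they were lower, at 72.8 and 89.7 with HIF2α against 80.1 and 94.4 with BMAL1. An intron of MALL, a membrane proteolipid (chr2:110858917-110859829), had 6, 5, 14 and 10, and an intron of NEK6, a mitotic kinase (chr9:127068724-127069372), had 7, 7, 9 and 5. Their median percentiles ran from 71.6 for NEK6 to 85.8 for DOT1L. NEK6 was the exception to the higher HIF2α pileups, with 5 in shBMAL1 HIF2α against 7 in both BMAL1 lists.

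**Figure D5:**
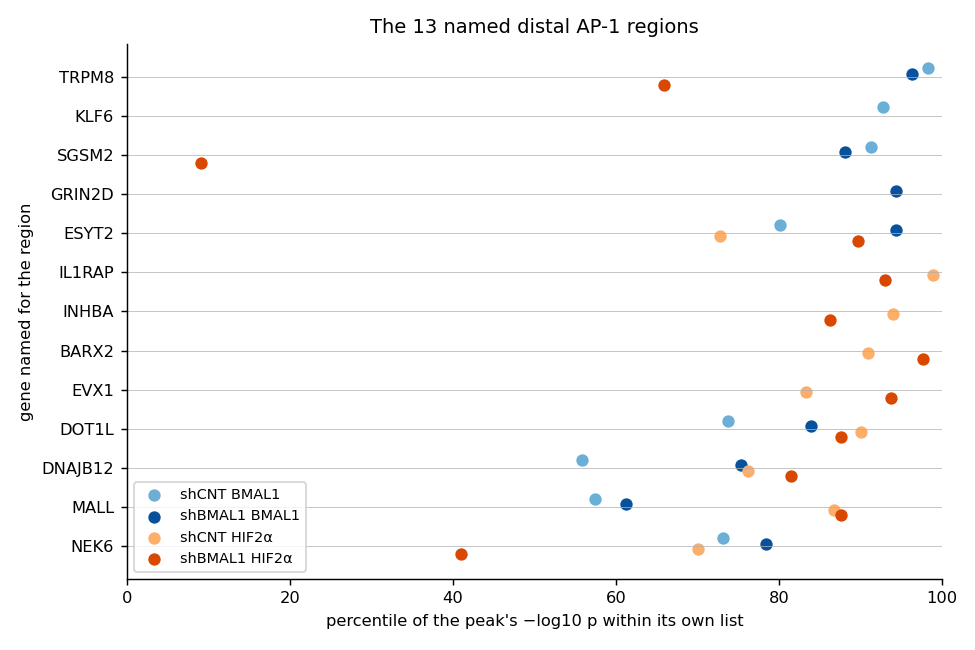
Percentile of the peak's −log10 p within its own list (x axis) for the 13 named regions (y axis), with 1 point per list in which the region had a peak. IL1RAP, INHBA, BARX2 and EVX1 have HIF2α points only, KLF6 and GRIN2D have a single BMAL1 point, and the last 4 regions and ESYT2 have all 4.

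Sequence beyond the window was then examined, since a binding site for HIF2α may lie further from the summit. Between 100 and 500 bp from the summit an HRE core was found at 134 of 194 members with a HIF2α peak (69.1%, interval 62.3 to 75.2%) and at 249 of 431 with BMAL1 peaks only (57.8%, 53.1 to 62.3%), a difference of 11.3 points (3.09 to 19.0). At 2 kb from the summits, stretches of the same length held a core in 60.1% of both sets. Within the whole merged region the core was present at 25.3% of members with a HIF2α peak and 15.5% of those with BMAL1 peaks only (difference 9.71 points, 2.99 to 17.0). For motif-free distal regions these whole-region shares were 26.8% and 12.2%, and region width was not accounted for. Motif-free distal regions had 67.2% and 61.3% at 100 to 500 bp, and the members' differences from these values, 1.87 points (-5.60 to 8.74) and -3.50 points (-8.92 to 1.83), both had intervals that include 0. An E-box at 100 to 500 bp was found at 9.79% and 9.05% of the members, a difference of 0.745 points (-3.87 to 6.27).

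The bases next to the AP-1 motif differed from those at other copies of it. Of the 681 motifs in member windows, 63 had A before and T after (9.25%), against 101 of 2100 motifs found 1 to 10 kb from the same summits (4.81%), a difference of 4.44 points (interval 2.25 to 6.99). A purine before and a pyrimidine after was found at 37.4% against 25.1% (12.3 points, 8.32 to 16.5). T before the motif on at least 1 strand was found at 18.8% against 36.1% (-17.3 points, -20.8 to -13.6). The features above it require both flanking bases, so their shares are not on the same footing. The motifs at members thus held fewer T-flanked copies. GC after the motif, the form found in the antioxidant response elements to which NRF2 and small MAF proteins bind, was present at 14.7% against 13.2%, a difference of 1.45 points whose interval (-1.44 to 4.62) includes 0.

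Other motifs were searched on both strands of the 200-bp windows and read against the motif-free distal regions and against windows 2 kb to either side of the members. The TEAD motif GGAATG, bound by the partners of YAP, was in 23.4% of member windows (interval 20.2 to 26.8%), 19.1% of motif-free windows (difference 4.22 points, 0.629 to 8.06), 19.5% of all distal windows and 10.0% of the flanking windows. The RUNX motif AACCACA was in 6.56%, against 9.07% of motif-free windows (-2.51 points, -4.64 to -0.00901), 7.98% of all distal and 3.12% of flanking windows. The ETS motif AGGAAGT was in 7.04% against 7.26% of motif-free, 7.10% of all distal and 4.24% of flanking windows. TEAD, RUNX and ETS motifs were therefore more frequent in member windows than in their flanks, whereas against the motif-free regions TEAD was higher, RUNX lower and ETS not separable (-0.225 points, -2.34 to 2.28). The TEAD and RUNX differences from the motif-free regions had intervals that include 0 when motifs were sought within 50 or 200 bp of the summit. The Sp1 motif GGGCGG was in 4.16% of member and 7.31% of motif-free windows (-3.15 points, -4.92 to -1.02) and 8.20% of all distal windows. The general E-box CANNTG, of which CACGTG is 1 form excluded by the rule, was in 69.3% of member, 64.0% of motif-free, 65.7% of all distal and 66.9% of flanking windows. The AP-1 motif begins with TG and ends with CA, which can each form part of CANNTG, so these shares were not read as a difference. The C/EBP motif TTGCNNAA (10.1% against 11.8%, and 11.8% of all distal windows), the FOX motif TGTTTAC (4.80% against 4.84%, and 4.57%) and the cyclic AMP response element TGACGTCA (0.32% against 0.38%, and 0.33%) had differences from motif-free regions whose intervals include 0. A match to the longer CTCF motif was in 0 member windows, which allows a share of up to 0.611% by the Wilson interval, and in 15 motif-free windows (0.712%). The NF1 motif was in 0 and 1 windows and the renal HNF1 motif in 1 and 4.

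Members called with each antibody were described for the same features. The TEAD motif was in 22.7% of members with BMAL1 peaks only (interval 19.0 to 26.9%) and 27.2% of those with HIF2α peaks only (19.9 to 36.0%), and more than 1 AP-1 motif was in 9.05% and 6.14%. Median GC content was 46.0% and 45.5%. The 80 members called with both antibodies had a median GC content of 49.8%.

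Members were most often found within gene bodies. The summit lay in an intron of a protein-coding gene at 315 members (50.4%, interval 46.5 to 54.3%), between genes at 217 (34.7%), in an intron of another gene at 69, in an untranslated region at 13, in a coding exon at 3 and in another exon at 8. The median distance to the nearest transcript start was 9523 bp, with 192 members at 1 to 5 kb, 269 at 5 to 20 kb, 119 at 20 to 50 kb and 45 beyond. The motif-free distal regions had a like distribution, with 50.4% in introns of protein-coding genes and 32.4% between genes.

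Lists of genes were searched for members within the gene or 50 kb to either side. At the 14 genes of AP-1 subunits there were 3 members (0.48%), against 0.507% of all merged regions. A member inside the annotated span of JUN, 3812 bp from its start (chr1:59245875-59246012), was called in shCNT HIF2α alone with a pileup of 5. A member between ATF3 and BATF3 (chr1:212840842-212841359) was called in shBMAL1 BMAL1, shCNT HIF2α and shBMAL1 HIF2α with pileups of 4, 7 and 6. A member 22492 bp from the start of MAFF (chr22:38574106-38574319) was called in shBMAL1 BMAL1 alone with a pileup of 3, the lowest in that list. The genes that encode AP-1 thus held members at about the share of all regions.

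The other lists held few members each. The 33 genes that respond to AP-1 and RAS-ERK signalling had 4 (0.64% against 0.58% of all regions), among them 2 at LIF, a cytokine of the interleukin-6 family, and 1 at the receptor EPHA2. The LIF member 11059 bp from its start was called in both BMAL1 lists with pileups of 4 and 6, and the EPHA2 member in shBMAL1 BMAL1 alone with 6. YAP-TEAD target genes had 2 members (0.32% against 0.181%), at CRIM1 and TGFB2, and mesenchymal and actin genes had 2 (0.32% against 0.447%), both in introns of the non-muscle myosin gene MYH9. These 4 were called in shBMAL1 BMAL1 alone, with pileups of 7, 3, 5 and 4. NRF2 target genes had 1 member (0.16% against 0.278%), in an intron of the cystine transporter gene SLC7A11, with a pileup of 5 in shBMAL1 BMAL1 alone.

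HIF target genes had 3 members (0.48% against 0.725% of all regions). The region near DNAJB12 described above lies 47027 bp from the start of DDIT4, an inhibitor of mTOR signalling. A member 7548 bp from the start of ANGPTL4, a lipase inhibitor, was called in both HIF2α lists with a pileup of 5 in each. A member 134814 bp from the start of PFKFB3, a glycolytic regulator, was called in both shCNT lists with a pileup of 6 in each. Clock genes had 1 member (0.16% against 0.592%), 42661 bp from the start of BHLHE40, a clock repressor, with a pileup of 4 in shBMAL1 HIF2α alone. Renal lineage genes had 1 (0.16% against 0.133%), 4894 bp from the start of PAX8, with a pileup of 6 in shBMAL1 BMAL1 alone.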

How the data were processed

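The 20 A498 CUT&RUN libraries were assigned to groups from their titles. Reads were aligned by the authors with Bowtie2 2.5.3 to hg19, which is GRCh37. The authors then removed duplicates, called peaks with MACS2 2.2.9.1 and removed blacklisted regions with bedtools 2.31.1. Whether replicates were pooled, and which control was used, is not given in the sources used here, and 16 libraries have no list of their own here. The deposited fold is a ratio on a linear scale, summit over local background, and the deposited p-value and q-value are written as −log10. The deposited score of each peak, written by the peak caller for the authors, was not used. The deposited lists are not scaled by the spike-in.

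The fold equals (pileup + 1) / (background + 1) and p is a Poisson probability, from which a whole-number pileup was recovered for 100% of peaks in every list (tolerance 0.001). Merging, motif searches on the GRCh37 sequence and distances to 220821 transcript starts of GENCODE release 44 mapped to GRCh37 were run in Python 3.11.15 with numpy 2.4.6, pandas 2.3.3, scipy 1.17.1 and pysam 0.24.0, and tested on simulated data. A motif had to lie wholly inside the 200-bp window. Intervals cover counting error over regions only, since each group has 1 list.

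Named regions were the 3 strongest members of each list, the 5 members of all 4 lists with the highest median percentile, all members within 50 kb of AP-1 subunit genes, and the 2 strongest at each other gene list. The region took the name of the protein-coding gene that held its summit, or otherwise of the nearest start. ANGPTL4 falls outside the 2 strongest of its list and was named after its values were seen. 1 further gene is not reported here. Members and gene lists were chosen with earlier results of these data known. Alternatives were stricter peaks, other merging, summits, start distances, motif windows and gene distances.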

Additional observations from a re-analysis of the deposited data

How the results depend on the processing

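No paired analysis was possible because each group has 1 peak list, and for the same reason no list could be left out within a group. The excess of members over motif-free distal regions in a BMAL1 list and the deficit in a HIF2α list kept their direction, with intervals that exclude 0, under all 11 alternatives, at 8.60 to 15.0 and -12.1 to -6.93 points.

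The number of members was 323 with a −log10 p of at least 8, 404 with a pileup of at least 5 and 397 with a window of 50 bp. Under a −log10 p of at least 8, the share in shBMAL1 HIF2α was 20.1% and the share of unused summits with the motif 72.9%. With lists of equal length, the shares in shCNT BMAL1, shBMAL1 BMAL1 and shCNT HIF2α were 38.9%, 52.6% and 18.2%, the share with both shRNAs 20.05% and that under shBMAL1 alone 49.5%. With a pileup of at least 5, the shares in shCNT BMAL1, shBMAL1 BMAL1 and shBMAL1 HIF2α were 36.6%, 61.6% and 20.5%, with both shRNAs 21.8% and under shBMAL1 alone 54.0%. With a window of 50 bp, the BMAL1 shares under shCNT and shBMAL1 were 21.2% and 63.7% and the HIF2α shares 21.2% and 29.2%, and with both shRNAs 20.4%. With a window of 200 bp, 79.8% were in 1 list only.

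Against motif-free regions, the shCNT HIF2α difference gained an interval that excludes 0 at -3.78 points over strength quartiles, -5.30 at a −log10 p of at least 8, -5.62 with lists of equal length, -7.62 with a pileup of at least 5 and -3.43 on autosomes alone, and turned to 0.471 points with a window of 50 bp, where shCNT BMAL1 turned to -2.52 points. Neither turned value has an interval that excludes 0. The shBMAL1 HIF2α difference lost it at -3.43 points with lists of equal length and -3.87 with a pileup of at least 5, where shBMAL1 alone gained it at 6.74 points. The TEAD difference lost it at 1.70 points within 50 bp and 1.30 within 200 bp, RUNX at -1.48 and -1.68, CANNTG at 3.93 within 50 bp and Sp1 at -2.54 within 200 bp. Members at any gene list fell from 17 to 7 within 10 kb. The cause of these changes was not tested. In all, 140 of 178 recomputed values stayed on their side of the threshold or within their spread.

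Depth limits what can be read from single regions, since member pileups had medians of 5 or 6 fragments.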

Other observations

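The members were spread over 558 named genes, of which 54 had 2 members and 6 had 3 or more. The genes in this paragraph were chosen after their values were seen. VMP1, a membrane protein of autophagy, had 4 members on chromosome 17, all called in shBMAL1 BMAL1 with pileups of 7, 3, 5 and 6, the last also in shCNT BMAL1 with 5. CTAGE1, GLIS3, GNA12, LSAMP and PFKP had 3 each. At PFKP, which encodes a phosphofructokinase of glycolysis, the member in an intron at chr10:3137627-3138145 was called in shCNT BMAL1, shCNT HIF2α and shBMAL1 HIF2α with pileups of 7, 8 and 7. EPAS1, which encodes HIF2α, held 2 intronic members (chr2:46542525-46542709 and chr2:46552362-46552736), both called in shBMAL1 HIF2α alone, with pileups of 4 and 5. NFE2L2, which encodes NRF2, held 2 intronic members with pileups of 3 in shBMAL1 BMAL1 and 5 in shCNT BMAL1. RUNX1 and TEAD1, which encode transcription factors of the RUNX and TEAD families, and TGFBR2, a receptor of TGF-β, had 2 each, with pileups of 3 to 6.

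Few members were close to each other, but such shares belong to classes of different size. Of the 625, 46 (7.36%) had another member within 12.5 kb. A region of the same class was that close at 13.7% of the 2106 motif-free, 13.2% of the 1608 HRE and 2.87% of the 209 E-box regions. Another distal region of any kind was within that distance at 171 members (27.4%, interval 24.0 to 31.0%), against 26.7% of motif-free distal regions (24.8 to 28.6%). Members made up 23.7% of the distal regions of chromosome 18 (14 of 59) and 5.26% of those of chromosome 14 (4 of 76), the highest and lowest shares among the chromosomes.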
